A study of Rattus norvegicus with 6 samples.

Results

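The lysosomal genes examined here are 39 rat genes for acid hydrolases, lysosomal membrane proteins and the transcription factors of the MiT-TFE family, taken by symbol from a fixed list. Of these, 38 had a row in the combined count table of 20264 genes and 37 had enough reads to be tested, among 11426 genes tested in all. RNA-seq was performed on NPCs (nucleus pulposus cells, the cells of the gel-like centre of the intervertebral disc) that had been isolated from the tail discs of wild type male Sprague-Dawley rats and grown in serum-containing medium. All 6 cultures received TBHP (tert-butyl hydroperoxide, an oxidant used to bring on senescence), and 3 of them received recombinant FGF21 (fibroblast growth factor 21, a metabolic hormone) as well. The groups are called TBHP (n = 3, libraries T1 to T3) and TBHP+FGF21 (n = 3, libraries F1 to F3, the digit being the replicate number). No culture without TBHP is part of this comparison. The doses and times used for the sequenced cultures and the age of the rats are not given in the sources used here. The treatment label of F2 names FGF22 and that of F3 names FGF23, whereas the series design and the protocol of every sample name FGF21 alone. The replicates are described as biological, without saying whether each came from its own rats, so the p-values measure the spread between these libraries.

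Lysosomes are acidic organelles in which proteins, glycans, lipids and the cargo of autophagy are broken down. Most of their soluble enzymes are made in the endoplasmic reticulum, tagged with mannose 6-phosphate and sorted through the Golgi apparatus, while a vacuolar proton pump keeps the lumen acidic. TFEB, TFE3 and MITF bind E-box sequences and switch on many lysosomal and autophagy genes once they enter the nucleus, and mTORC1 at the lysosomal surface holds them in the cytoplasm. In the disc, lysosomal enzymes take part in the turnover of proteoglycans, and lysosomal beta-galactosidase is the enzyme behind the SA-β-Gal stain for senescent cells.

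The libraries held between 18277732 and 22426190 counts, so that 3 counts, the limit that a count of 0 allows, correspond to 0.131 to 0.168 CPM (read counts scaled to the size of the library, with TMM factors; counting error only). The labelled cell type was checked by its markers. Acan, the core protein of the disc proteoglycan aggrecan, was between 2506 and 4355 CPM and the disc factor Pax1 between 211 and 385 CPM, while the notochordal markers Tbxt, Shh and Noto had no count and the cartilage collagen gene Col2a1 stayed under 1 CPM in every library. Of the 18 nucleus pulposus markers with a row, 6 stayed under 1 CPM. Krt8, Cd24 and Car3 reached at most 4.27, 2.13 and 2.58 CPM, whereas Slc2a1 reached 401 and Hif1a 123 CPM. Col1a1, listed for fibroblasts and annulus fibrosus, was between 27870 and 42460 CPM. Macrophages, which are rich in lysosomes, were looked for with 17 markers. Their summed level was 33.0 to 39.6 CPM in the TBHP group and 27.7 to 34.4 CPM in the TBHP+FGF21 group, most of it from Cd14, and 7 markers, among them Ptprc, Adgre1 and C1qa, had no count. Osteoclast markers (9 genes) summed to 67.7 to 75.0 and 70.0 to 73.2 CPM with Calcr, Ocstamp, Dcstamp and Tnfrsf11a at 0. Most of that sum came from Nfatc1 (47.8 to 56.2 CPM) and Acp5 (15.4 to 17.9 CPM). Endothelial markers (6 of 7 listed genes had a row) summed to 7.60 to 10.5 and 6.93 to 10.1 CPM with Cdh5, Kdr, Tie1 and Emcn at 0. Nearly all of it was Cldn5 (6.28 to 10.2 CPM).

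Most of the lysosomal genes were higher in the TBHP+FGF21 group, by small amounts, and no gene among them passed the test. The log2 fold change was above 0 for 27 of the 37 members tested and below 0 for 10, whereas it was above 0 for 48.9% of all genes tested. The median was 0.14 for the members and -0.01 for all genes. The highest value was that of Glb1 at 0.31 and the lowest that of Npc2 at -0.21. By edgeR's quasi-likelihood test no member had an adjusted p under 0.05 (0.00875% of all genes did, a single gene, Sirt1, whose counts in the combined table match no row of the per-sample files). At an unadjusted p under 0.05 there were 3 members, 8.11% against 8.92% of all genes. All 3 (Glb1, Idua and Npc1) were higher, where 4.63% of all genes were called higher and 4.29% lower, and no member also differed by more than 1 on the log2 scale, as 0.534% of all genes did. With DESeq2's Wald test the number was also 0 at an adjusted p and 3 unadjusted (8.11% against 7.98% of all genes), and with limma-voom it was 0 and 1 (2.70% against 8.72%). Since these are bulk samples, fewer cells of a type and less RNA per cell cannot be told apart.

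The members did not behave alike in the 3 TBHP+FGF21 libraries. F1 was above every TBHP library for 25 of 37 members (31.2% of all genes) and F3 for 23 (31.7% of all genes). F2 was above them for 1 member (17.2% of all genes), within the TBHP range for 26 (64.4% of all genes) and below it for 10 (27.0% against 18.3% of all genes). The median log2 ratio of the members to the TBHP mean was 0.21 in F1, -0.07 in F2 and 0.23 in F3, and between -0.02 and 0.03 in the TBHP libraries. Together the 38 genes took 1.21% to 1.24% of the counts in the TBHP group and 1.42%, 1.16% and 1.45% in F1, F2 and F3. The groups failed to overlap for 2 members only, Tfe3 and Gla (5.41% against 9.90% of all genes). F2 also stood nearer to the TBHP libraries across all genes (Spearman's rho 0.9959 to 0.9961, against 0.9916 and 0.9888 with the others of its group). F2 was not alone in this. T3 stood nearer to F1 (0.9942) and F2 (0.9959) than to T1 (0.9928) and T2 (0.9933), though not to F3 (0.9912).

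**Figure D1:**
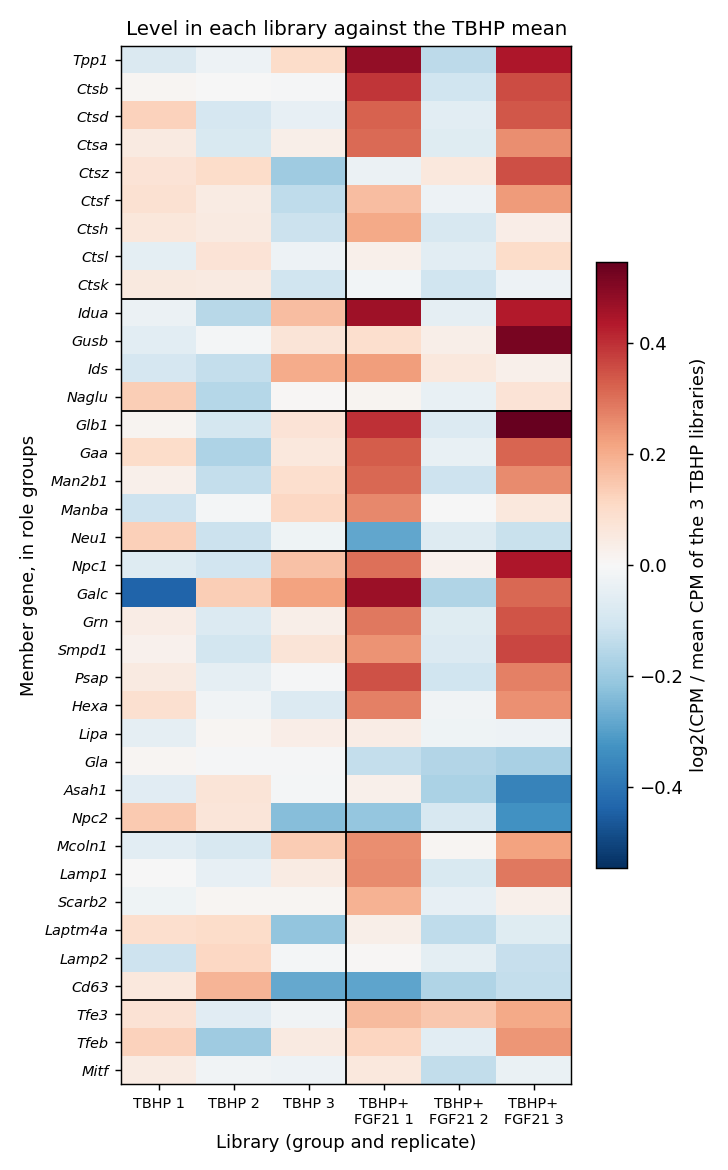
Level of the 37 members tested (rows, in role groups from proteases at the top to MiT-TFE factors at the bottom) in each library (columns), as log2 of CPM over the mean CPM of the 3 TBHP libraries. F1 and F3 are red for most hydrolases, and F2 is close to the TBHP libraries. The medians over all 37 members are 0.21 in F1, -0.07 in F2 and 0.23 in F3.

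The fit therefore turned on which library was left out. Without F2, 17 members had an unadjusted p under 0.05 (45.9%, against 23.6% of all genes), 16 of them higher (11.6% of all genes) and 1, Npc2, lower (12.0% of all genes). An adjusted p under 0.05 was then reached by 5 members (13.5%, against 7.50% of all genes), namely Tpp1, Glb1, Idua, Ctsb and Npc1, all higher, and the median was 0.20. Without F3 no member was under 0.05 unadjusted (2.96% of all genes), and without F1 there was 1 (4.15%). In the TBHP group, leaving out T1, T2 or T3 gave 1 (4.41% of all genes), 0 (2.92%) and 6 members (15.3%). With F1 as the only TBHP+FGF21 library, the library whose label names FGF21, 13 members were under 0.05 unadjusted (14.2% of all genes) and Tpp1 alone was under 0.05 adjusted (2.77%). In that fit the spread comes from the TBHP libraries, and the lone library is assumed to vary like them. The sign of the log2 fold change was kept in all 6 fits that left out 1 library by 24 of the 27 higher and 7 of the 10 lower members.

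**Figure D2:**
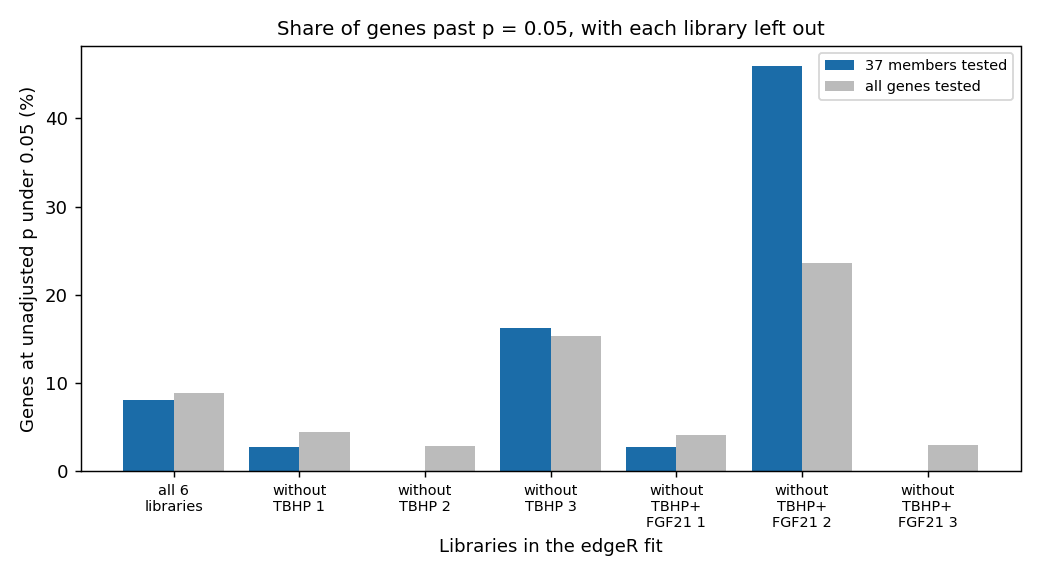
Share of genes with an unadjusted p under 0.05 by edgeR's quasi-likelihood test (y axis, percent) among the 37 members (blue) and all genes tested (grey), with all 6 libraries and with each library left out in turn (x axis). The members are at 8.11% against 8.92% with all libraries and, without F2 (TBHP+FGF21 2 on the axis), at 45.9% against 23.6%.

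Among the MiT-TFE factors, Tfe3 was slightly higher in every TBHP+FGF21 library, and Tfeb and Mitf lay within the spread of the libraries. Tfe3, a factor that acts in parallel with Tfeb, was at 50.8, 46.1 and 47.5 CPM in T1, T2 and T3 and at 54.3, 53.3 and 55.5 CPM in F1, F2 and F3 (the order kept from here on). It was the only higher member with no overlap between the groups, at a log2 fold change of 0.18 (SE 0.09, adjusted p = 0.557). Tfeb, the factor best known for lysosome biogenesis, was at 19.2, 15.4 and 18.2 CPM and at 19.1, 16.9 and 20.8 CPM. Its groups overlapped, and its log2 fold change of 0.11 (SE 0.13, adjusted p = 0.765) was 0.02 without T2. Mitf, the family member first known from pigment cells and osteoclasts, was at 18.9, 18.1 and 18.0 CPM and at 19.1, 16.7 and 17.9 CPM. The groups of Mitf overlapped, with a log2 fold change of -0.03 (SE 0.11) that became 0.02 without F2.

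What some of the members share in sequence is the E-box that these factors bind. In RefSeq's promoter table for the GRCr8 build (250 bases before to 50 after the start it uses), 35 of the 39 members had an entry. The core CACGTG was found in 10 of these 35 promoters (28.6%, against 6.42% of all 33469 promoters and 9.27% of those of tested genes). The longer GTCACGTG, read on both strands and containing the core, was in 8 (22.9%, against 1.85% and 3.90%), namely Ctsd, Lamp1, Glb1, Gaa, Galc, Idua, Sgsh and Mcoln1. In Galc the match reads the same on both strands. The motif was chosen because these factors bind it, and the list was chosen for lysosomal genes. A high share therefore describes the list and is not a result of these libraries. Many genes outside the list carry these letters too, and a match is not a shown binding site. Below, the match nearest to the start is given for the 7 of these genes that were tested, in a window of 30 bases, 5′ to 3′ on the strand of the gene, and with the matching bases in capitals. They are shown because the fold changes of these 7 genes are set against those of the others afterwards.
Ctsd: cgcccgcgtctCACGTGACccgttgagggg
Lamp1: gcggcactgttCACGTGACaggcgctgccg
Glb1: gcggctccggaGTCACGTGgcctgcagagg
Gaa: cgcccacaaacCACGTGACccacgctgccc
Galc: agggtgccacaGTCACGTGACccgcacaat
Idua: cctggcgaatgGTCACGTGgggcgttaccc
Mcoln1: ggcgccccgctCACGTGACcgcggcgcatg

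In GRCr8 these windows lie at chr1:206968813-206968842 (minus strand, Ctsd), chr16:83075083-83075112 (minus, Lamp1), chr8:122963605-122963634 (plus, Glb1), chr10:105028277-105028306 (plus, Gaa), chr6:123245563-123245592 (minus, Galc), chr14:1190915-1190944 (minus, Idua) and chr12:6358251-6358280 (plus, Mcoln1). The match began 10 bases before the start for Ctsd, 38 for Lamp1, 102 for Glb1, 67 for Gaa, 22 for Galc and 5 for Idua, and 4 bases after it for Mcoln1. Lamp1 held 4 such matches, and Ctsd and Mcoln1 held 2 each. The 9 tested genes with the core had log2 fold changes from -0.19 (Cd63) to 0.31 (Glb1). The 7 genes with the longer motif had log2 fold changes between 0.16 and 0.31 with a median of 0.21, and the 26 other tested members with a promoter entry had a median of 0.08. The values of these 7 rested on F1 and F3, since F2 lay below the TBHP range for Lamp1 and within it for the others. None of the 7 had an adjusted p under 0.05 with all libraries in edgeR's quasi-likelihood test. Over all tested genes with an entry, the median was -0.0005 for the 392 with GTCACGTG and -0.0052 for the 8834 without it. For the core CACGTG the order was reversed, at -0.0166 for the 934 genes with it and -0.0038 for the 8292 without it.

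Of the lysosomal membrane proteins, 3 were higher and 3 lower, with a median log2 fold change of 0.0033. Lamp1, the most used marker of the lysosomal membrane, was at 1225, 1188 and 1265 CPM in the TBHP group and at 1467, 1157 and 1499 CPM in the TBHP+FGF21 group. F1 and F3 were above the TBHP libraries and F2 was below them, so that the log2 fold change of 0.16 (SE 0.11, adjusted p = 0.622) was 0.28 without F2 and 0.10 without F3. Lamp2, a related membrane protein with an isoform that serves as the receptor of chaperone-mediated autophagy, was at 165, 194 and 178 CPM and at 180, 173 and 164 CPM, fully overlapping. The log2 fold change of Lamp2 was -0.06 (SE 0.09), and 0.0034 without T2. Mcoln1, the calcium channel TRPML1 that feeds back on TFEB, was at 48.2, 47.2 and 55.2 CPM and at 59.9, 50.5 and 58.5 CPM, with a log2 fold change of 0.17 (SE 0.10, adjusted p = 0.594). Cd63, a tetraspanin of late endosomes and exosomes, was at 1179, 1290 and 933 CPM and at 929, 1011 and 1036 CPM. The low value of T3 set the overlap, and the log2 fold change of -0.19 (SE 0.12) ran from -0.31 without that library to -0.09 without T2. Scarb2 and Laptm4a were between -0.05 and 0.06.

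Among the proteases, 8 of the 9 tested had a log2 fold change above 0, and the median was 0.14. Tpp1, a serine protease that removes tripeptides, was at 137, 142 and 155 CPM in the TBHP group and at 202, 131 and 196 CPM in the TBHP+FGF21 group. Here F2 was the lowest of all 6 libraries and F1 and F3 the highest. Its log2 fold change of 0.29 (SE 0.14, adjusted p = 0.557) became 0.47 (SE 0.10, adjusted p = 0.0085) without F2 and 0.19 (adjusted p = 0.916) without F1. Ctsb, a cysteine protease that is among the most abundant lysosomal enzymes, was at 1277, 1266 and 1263 CPM and at 1662, 1178 and 1626 CPM. The TBHP libraries differed by an SD of 7.20 CPM and the TBHP+FGF21 libraries by an SD of 270.0 CPM. The log2 fold change of Ctsb was 0.23 (SE 0.13, adjusted p = 0.568), 0.38 (adjusted p = 0.0292) without F2 and 0.16 (adjusted p = 0.916) without F1. Ctsd, the main aspartic protease of the lysosome, was at 731, 628 and 650 CPM and at 836, 643 and 848 CPM. For Ctsd, F2 lay inside the TBHP range, and the log2 fold change was 0.21 (SE 0.12, adjusted p = 0.572). It was 0.34 (adjusted p = 0.057) without F2 and 0.15 (adjusted p = 0.973) without F3.

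The pattern did not extend to all cathepsins. Ctsl, a cysteine protease with broad substrates, was at 1280, 1399 and 1301 CPM and at 1353, 1276 and 1422 CPM, and Ctsk, the collagen-cutting cathepsin of osteoclasts, was at 98.5, 98.2 and 88.0 CPM and at 93.9, 87.9 and 93.1 CPM. Both overlapped between the groups, at log2 fold changes of 0.03 (SE 0.09) and -0.05 (SE 0.09). Ctsl was at -0.01 without F3. The other tested proteases (Ctsa, a carboxypeptidase that also shields beta-galactosidase and neuraminidase, and the cysteine cathepsins Ctsf, Ctsh and Ctsz) lay between 0.06 and 0.175. Ctsc, which activates serine proteases of immune cells, had 0 counts in every TBHP library, against 1 in F1, 2 in F2 and 0 in F3, within the limit of 3 counts in both, and was not tested.

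**Figure D3:**
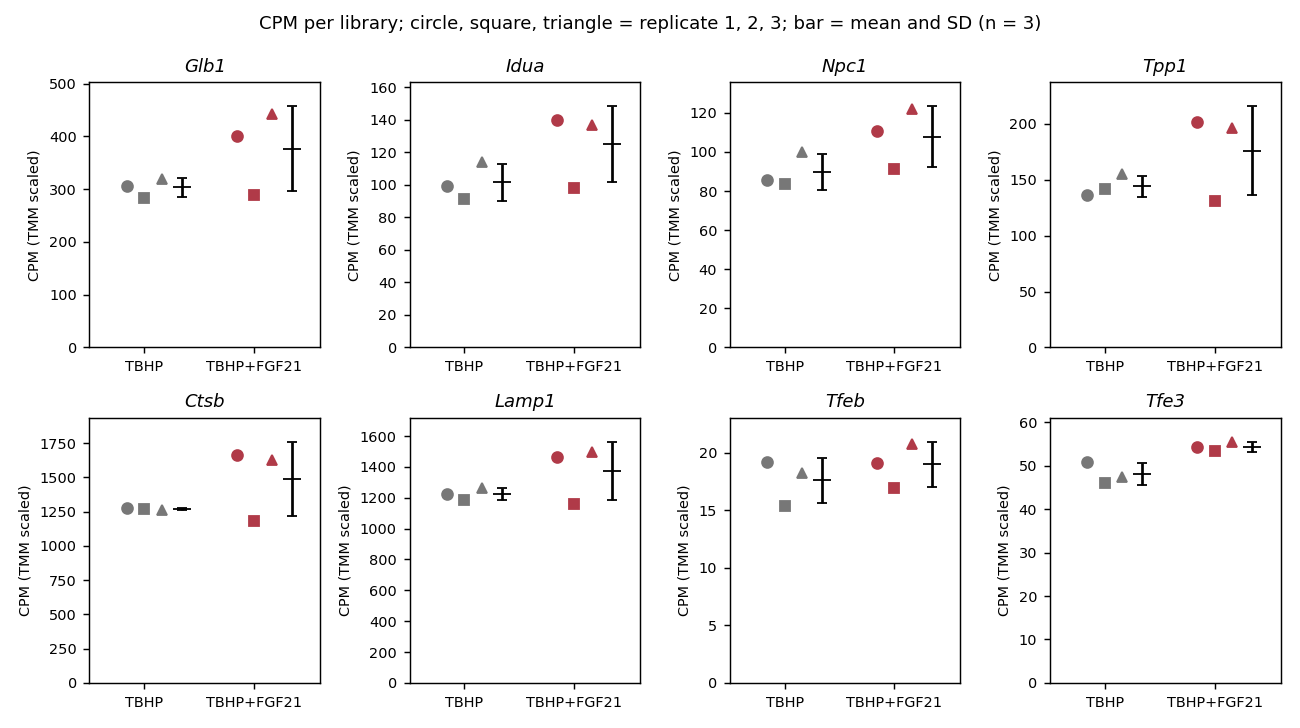
CPM in each library (points; replicates as circle, square and triangle) with mean and SD (bars, n = 3) for 8 members, on linear axes that start at 0. In Glb1, Idua, Npc1, Tpp1, Ctsb and Lamp1 the square of the TBHP+FGF21 group, F2, sits within or just below the TBHP range and the circle and triangle above it, while Tfe3 is slightly above TBHP in all 3 libraries.

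The 4 tested enzymes that take apart glycosaminoglycans, the sugar chains of the disc's proteoglycans, had log2 fold changes from 0.02 to 0.30. Idua, the alpha-L-iduronidase of dermatan and heparan sulfate, was at 99.1, 91.2 and 114 CPM in the TBHP group and at 140, 98.1 and 137 CPM in the TBHP+FGF21 group. Only F2 overlapped with the TBHP libraries. The log2 fold change of Idua was 0.30 (SE 0.14, adjusted p = 0.553), between 0.22 (adjusted p = 0.916) without F1 and 0.46 (adjusted p = 0.016) without F2. Gusb (beta-glucuronidase) was at 0.23, a value that rested on F3 (76.5 CPM, against 51.3 to 57.0 CPM in the other libraries) and was 0.07 without it. Ids (which removes sulfate from iduronate) was at 0.11 and Naglu (an N-acetylglucosaminidase of heparan sulfate) at 0.02, and Sgsh, a heparan sulfate sulfatase, had no row under this symbol and was not analysed here. The nucleus pulposus markers moved in part with the same libraries. Acan, Pax1 and Foxf1 were higher in F1 and F3 than in F2, whereas Krt8, Sox6, Hif1a and Cdh2 were lower in F3 than in F2 and Slc2a1 was lower in F1 than in F2. The summed level of the 18 markers with a row was 3304 to 3743 CPM in the TBHP group and 4408, 3670 and 5360 CPM in F1, F2 and F3, most of it Acan. Of the 13 tested, 4 were higher at an unadjusted p under 0.05 (4.63% of all genes), and their median log2 fold change was 0.0002. Over the 12 fibroblast and annulus markers the sums were 45970 to 50490 CPM and 44520, 48050 and 34930 CPM, mostly Col1a1. Of the 11 tested, 1 was higher and 1 lower at an unadjusted p under 0.05 (4.63% and 4.29% of all genes). The median log2 fold change of these 11 was 0.06. In F1 and F3, Col1a1, Col5a1 and Scx were below every TBHP library, whereas Pdgfra, Pdgfrb and Mkx were above every TBHP library. The part of these shifts in the lysosomal values was not tested.

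Glycosidases of glycoproteins and glycogen included the member with the highest log2 fold change. Glb1, which encodes beta-galactosidase, was at 307, 284 and 320 CPM in the TBHP group and at 400, 288 and 443 CPM in the TBHP+FGF21 group, means of 303 ± 18.3 and 377 ± 79.8 CPM (SD, n = 3). F1 and F3 lay above all TBHP libraries and F2 within their range. The log2 fold change was 0.31 (SE 0.14, adjusted p = 0.553), 0.48 (SE 0.10, adjusted p = 0.00924) without F2 and 0.19 (adjusted p = 0.973) without F3. These are transcript levels, and the enzyme's activity was not measured by sequencing. Gaa (acid alpha-glucosidase of glycogen), Man2b1 and Manba (mannosidases) were between 0.11 and 0.21. Neu1, the lysosomal neuraminidase that works in a complex with Ctsa and Glb1, went the other way, from 39.6 ± 3.41 to 35.5 ± 2.72 CPM (SD, n = 3), a log2 fold change of -0.16 (SE 0.10, adjusted p = 0.613).

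In the lipid group, 6 of 10 members were higher and 4 lower. Npc1, the membrane transporter that exports cholesterol from lysosomes, was at 85.5, 83.5 and 100.2 CPM in the TBHP group and at 111, 91.3 and 122 CPM in the TBHP+FGF21 group. F2 was again the library that overlapped. For Npc1 the log2 fold change was 0.27 (SE 0.12, adjusted p = 0.553), between 0.18 (adjusted p = 0.973) without F3 and 0.38 (adjusted p = 0.0374) without F2. Npc2 (named, like Asah1, Gla and Neu1, after the values were seen), the soluble protein that hands cholesterol to Npc1, was at 307, 291 and 236 CPM and at 240, 262 and 221 CPM. It had the opposite sign, at -0.21 (SE 0.11, adjusted p = 0.568), and ranged from -0.30 without T3 to -0.12 without T1.

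Psap, the precursor of the saposins that present sphingolipids to their hydrolases, was at 1423, 1329 and 1369 CPM in the TBHP group and at 1746, 1275 and 1664 CPM in the TBHP+FGF21 group. Grn, the progranulin precursor that travels with it, was at 810, 747 and 804 CPM and at 962, 752 and 998 CPM. Both had F1 and F3 above every TBHP library, and their log2 fold changes were 0.19 (SE 0.12, adjusted p = 0.604) and 0.20 (SE 0.12, adjusted p = 0.575), or 0.32 and 0.33 without F2. Psap was at 0.11 without F1 and Grn at 0.13 without F3. Asah1 (acid ceramidase) and Gla (alpha-galactosidase A) were lower at -0.16 and -0.15. Asah1 was at -0.06 without F3 and at -0.25 without F1. Gla had no overlap, with 17.9 to 18.1 CPM in the TBHP group and 15.9 to 16.4 CPM in the TBHP+FGF21 group (SE 0.11, adjusted p = 0.628). Galc, Hexa and Smpd1, which act on galactosylceramide, gangliosides and sphingomyelin, were between 0.17 and 0.22, and Lipa, the acid lipase of cholesteryl esters, was at -0.0023.

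**Figure D4:**
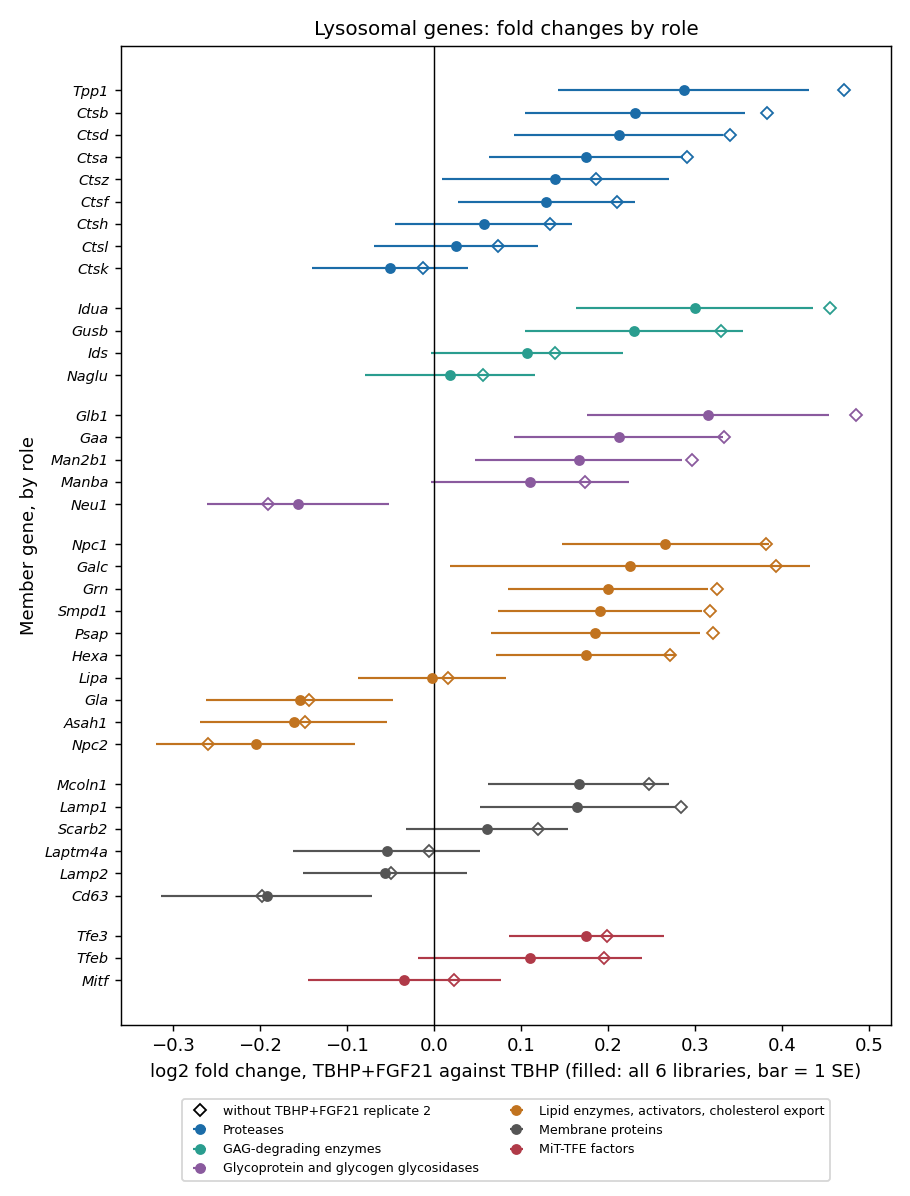
Log2 fold change of TBHP+FGF21 against TBHP for the 37 members tested, by role (filled points with bars of 1 SE from edgeR; GAG, glycosaminoglycan), and the same without F2 (open diamonds). With all libraries the values run from -0.21 (Npc2) to 0.31 (Glb1), and most higher members move further right without F2.

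The lists of genes that acidify, supply or control the lysosome varied in direction. Of 16 tested genes of the vacuolar ATPase, the proton pump that acidifies lysosomes, 6 were higher and 10 lower (median -0.04). At an unadjusted p under 0.05 were the cytosolic V1 subunits Atp6v1b2 (log2 fold change -0.27, SE 0.11), Atp6v1c1 (-0.23, SE 0.10) and Atp6v1e1 (-0.22, SE 0.10), which were lower, and the membrane subunit Atp6v0a2 (0.22, SE 0.09), which was higher. These were 3 lower and 1 higher of the 16, where 4.29% of all genes were called lower and 4.63% higher. Atp6v1b2 was at 153, 153 and 158 CPM in the TBHP group and at 122, 151 and 111 CPM in the TBHP+FGF21 group, with F2 again nearest to TBHP. It was at -0.40 (adjusted p = 0.0215) without that library, at -0.17 (adjusted p = 0.973) without F3, and had an adjusted p of 0.553 with all libraries. Atp6v1e1 was at -0.14 without F1. Atp6v1c1 and Atp6v0a2 did not overlap between the groups, as held for 9.90% of all genes. For Atp6v1c1, F2 was at 62.3 CPM and the TBHP libraries at 64.4 to 70.8 CPM. For Atp6v0a2, F2 was at 84.9 CPM and the TBHP libraries at 74.0 to 83.3 CPM.

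Of 32 tested lysosomal enzymes outside the list, 21 were higher and 11 lower (median 0.09). Here Hyal1, a hyaluronidase, was higher at 0.46 (SE 0.18) and Arsb, the sulfatase of dermatan and chondroitin sulfate, at 0.30 (SE 0.12), both at an unadjusted p under 0.05 and an adjusted p of 0.553. They were the only 2 of the 32 at that unadjusted limit, which 8.92% of all genes passed. Without F2 they were at 0.64 (adjusted p = 0.0188) and 0.44 (adjusted p = 0.0131). Hyal1 was at 0.32 (adjusted p = 0.916) without F1 and Arsb at 0.21 (adjusted p = 0.973) without F3. Arsb was at 151, 144 and 157 CPM and at 197, 150 and 207 CPM, the same order of libraries as in Glb1.

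The 18 tested genes of mannose 6-phosphate and sortilin sorting were 11 higher and 7 lower (median 0.09). Igf2r, the large mannose 6-phosphate receptor, was higher at 0.25 (SE 0.11), and Gga2, an adaptor of these receptors, was lower at -0.27 (SE 0.11). Without F2 Igf2r was at 0.36 (adjusted p = 0.0382), and without F3 at 0.19 (adjusted p = 0.973). The 20 tested genes around mTORC1 and the Rag GTPases that bear on where TFEB resides were 6 higher and 14 lower (median -0.06), with Mtor, the kinase itself, higher at 0.21 (SE 0.09). That list mixes opposing roles, since it also holds Tsc1 (0.09) and Tsc2 (0.23), which restrain mTORC1, and the calcineurin genes Ppp3ca (-0.02) and Ppp3cb (-0.05), whose phosphatase sends TFEB to the nucleus. Among 3 tested cystatins, inhibitors of cysteine cathepsins, Cstb was lower at -0.31 (SE 0.14). It was at -0.44 (adjusted p = 0.0494) without F2 and at -0.23 (adjusted p = 0.819) without T1. Gga2 and Mtor did not overlap between the groups, as held for 9.90% of all genes, whereas Igf2r and Cstb overlapped. Igf2r, Gga2, Mtor and Cstb were the only genes of these last 3 lists with an unadjusted p under 0.05, a limit that 8.92% of all genes passed. Each had an adjusted p of 0.553 with all libraries, so no gene of these 5 lists passed the test.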

How the data were processed

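The 6 rat NPC libraries (3 TBHP, 3 TBHP+FGF21) were grouped by their titles and the series design. The authors deposited a combined table of raw counts per gene symbol, handled as estimated counts because 22 rows hold values that are not whole (rounded up), and per-sample raw counts per Ensembl gene. STAR and featureCounts are named in the submitters' processing notes. Versions, build and annotation are not given in the sources used here. The strand columns were nearly equal (ratio 0.977 to 0.986), so unstranded counts were used, and reads of overlapping or antisense genes cannot be told apart. For 37 members the combined counts were identical to those of a single Ensembl row.

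Unassigned reads (unmapped 1.24% to 1.40%, multimapping 6.27% to 7.02%, outside genes 9.13% to 10.4%, ambiguous 1.72% to 2.09%) stayed out. edgeR 4.0.16 (R 4.3.3) was fitted over all genes with TMM, filterByExpr (minimum count 10, total 15), condition only, glmQLFit, glmQLFTest and Benjamini-Hochberg adjustment. SE is the log2 fold change over the square root of F. The fit was tested on simulated data with independent libraries and larger changes than those of the members. That run does not bear on a library such as F2 or on changes this small. Alternatives were DESeq2 1.42.0 (size factors, Wald test), limma-voom (limma 3.58.1), other filters, per-sample counts, the replicate block and left-out libraries.

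Members and lists were chosen with earlier results of these data known. The genes named were 14 fixed members, members and list genes at an unadjusted p under 0.05, the largest change in each role group and the smallest p in each list. Npc2, Asah1, Gla and Neu1 were named after their values were seen, and the other members are given by range. Promoter sequences came from RefSeq (GRCr8).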

Additional observations from a re-analysis of the deposited data

How the results depend on the processing

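Across 9 alternatives and 6 fits that left out 1 library, the members' median log2 fold change stayed above 0 (0.10 to 0.20 with 1 library left out). It moved by less than 0.166, the larger SD of the library medians within a group. That margin is wider than the median of 0.14 with all libraries, so staying inside it does not show that the median was stable. The number of members at an unadjusted p under 0.05 was 3 with all libraries, 1 with limma-voom (2.70% against 8.72% of all genes), 7 with the replicate block (18.9% against 14.0%), 13 with the only TBHP+FGF21 library whose label names FGF21 (35.1% against 14.2%), and 0 to 17 with 1 library left out. At an adjusted p it was 0, 1 with the library labelled FGF21 and 0 to 5 with 1 left out. Replicate numbers were not taken as pairs, since deviations of same-numbered libraries correlated at -0.122, 0.213 and 0.149, and the block changed no adjusted call of a member. Signs turned with the library labelled FGF21 alone for 6 members, Mitf (0.0649), Lamp2 (0.0092), Asah1 (0.0296), Ctsz (-0.0228), Laptm4a (0.0372) and Lipa (0.0453). They also turned in 6 members with 1 library left out, with ranges of -0.0723 to 0.0224 for Mitf, -0.1037 to 0.0034 for Lamp2, -0.0063 to 0.0737 for Ctsl, -0.0134 to 0.1332 for Ctsh, -0.0546 to 0.098 for Naglu and -0.0201 to 0.0236 for Lipa. The cause was not tested. At this depth (18277732 to 22426190 counts) Ctsc could not be compared.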
